A study of Mus musculus with 28 samples.

Results

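The translation initiation and elongation factors described here are the genes whose symbols begin with Eif1 to Eif6 or with Eef1 or Eef2, without the Eif2ak kinases. This rule, which uses names and no measured value, took 52 of the 13103 genes in the table, and 51 of them passed the filter on low values and were tested among 12548 genes. The 52nd, Eef1akmt1, a methyltransferase of the elongation factor eEF1A, reached at most 1.99 CPM, the count of a gene scaled to a common library size, in any sample. In 6 of 14 samples only 1 of the 2 libraries held counts of it, so it stayed under the filter, which used the mean log2 CPM of the libraries. Fitted without a filter, it was not called in any comparison (adjusted p in limma 0.669 to 0.939). The RNA came from regulatory T cells (Tregs) of Foxp3-GFP mice, a reporter strain in which green fluorescent protein (GFP) marks cells that express the Treg factor Foxp3. All mice carried B16 melanoma cells placed in the skin, a transplanted tumor, and tumors and spleens were taken 7 to 10 days later. CD45, CD3, CD4 and GFP were used to sort Tregs with high or low surface OX40, a receptor of T cells that gives a costimulatory signal. The 4 groups were tumor OX40plus (4 mice), tumor OX40minus (4 mice), spleen OX40plus (3 mice) and spleen OX40minus (3 mice). The animals' age is not given in the sources used here.

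Translation begins when the small ribosomal subunit, loaded with the initiator tRNA by eIF2, binds the 5′ end of an mRNA through eIF3 and the cap-binding complex eIF4F, and scans to a start codon. The eIF2B complex recharges eIF2 with GTP after each round, and stress kinases slow initiation by phosphorylating the alpha subunit of eIF2. eEF1A then brings each aminoacyl-tRNA to the ribosome, the eEF1B subunits recharge eEF1A, and eEF2 moves the ribosome along. In T cells, activation is known to raise protein synthesis strongly, and the mRNAs of several elongation factors belong to a class, together with the ribosomal protein mRNAs, whose translation follows mTOR signaling.

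Each sample below is 1 mouse and gate, for which 2 libraries were averaged because they differed by less than the mice did, at about the level of sampling. The samples held 22.4 M to 29.6 M estimated counts, and a floor of 3 counts per sample was 0.104 to 0.13 CPM. Each of the 9 Treg and T cell markers checked, Foxp3 among them, was above 1 CPM in at least 1 sample of every group. Their summed level was 10807 to 11682 CPM in tumor OX40plus and 9671 to 10356 CPM in tumor OX40minus Tregs. In spleens it was 5254 to 5646 CPM in OX40plus and 4123 to 4723 CPM in OX40minus Tregs. Between the tumor gates, Il2ra was called higher and Cd4 lower in OX40plus Tregs (log2 fold changes 0.62 and -0.68), and 7 were not called. Genes of other cells moved with the groups as well. The summed level of 10 macrophage genes was 71.7 to 78.3 CPM in tumor OX40plus, 265 to 393 CPM in tumor OX40minus, 104 to 212 CPM in spleen OX40plus and 789 to 992 CPM in spleen OX40minus Tregs. In tumor OX40plus samples the macrophage markers Adgre1 and Mertk were under 1 CPM in every sample. The other genes of this list were not, with means there of 22.4 CPM for Cd68 and 12.1 CPM for Csf1r. Adgre1 was also low in spleen OX40minus Tregs, at a mean of 0.888 CPM. The summed level of 5 B cell genes was at most 6.31 CPM in any tumor sample, against 415 to 628 CPM in spleen samples. The summed level of 5 dendritic cell genes was 13.0 to 25.6 CPM in tumor OX40plus, 51.8 to 67.6 CPM in tumor OX40minus, 14.5 to 19.1 CPM in spleen OX40plus and 43.1 to 49.0 CPM in spleen OX40minus Tregs. That of 6 genes of natural killer or CD8 T cells was 34.3 to 53.7 CPM in tumor OX40plus, 54.6 to 85.4 CPM in tumor OX40minus, 46.4 to 55.7 CPM in spleen OX40plus and 46.2 to 59.1 CPM in spleen OX40minus Tregs. That of 6 melanoma genes was 69.3 to 184 CPM in tumor OX40plus, 92.5 to 138 CPM in tumor OX40minus, 12.6 to 14.9 CPM in spleen OX40plus and 20.5 to 22.4 CPM in spleen OX40minus Tregs. Between the tumor gates limma called 9 of 9 tested macrophage, 3 of 5 dendritic cell, 5 of 6 natural killer or CD8 T cell and 1 of 5 B cell genes lower in OX40plus Tregs, and the 6 melanoma genes were not called. The summed level of 8 cell cycle genes was 3128 to 3432 CPM in tumor OX40plus, 1347 to 1675 CPM in tumor OX40minus, 1042 to 1646 CPM in spleen OX40plus and 675 to 827 CPM in spleen OX40minus Tregs. The part of these other genes in the differences below was not tested. In sorted bulk samples, fewer cells of a type and less RNA per cell cannot be told apart.

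In tumors, most of the translation factors were higher in OX40plus than in OX40minus Tregs. Of 51 members tested, 33 were higher and 2 were lower, Eif4ebp2 and Eif4e3. Over all genes, 18.5% were called higher and 19.9% were called lower in the same comparison, 38.4% in all. The median log2 fold change was 0.41 over the members and -0.08 over all genes tested. The whole set took 1.41% to 1.57% of the counts in tumor OX40plus samples and 1.13% to 1.17% in tumor OX40minus samples. Log2 fold changes are differences of mean log2 CPM, given with their standard error (SE). A gene was called at an adjusted p under 0.05 from limma with Benjamini-Hochberg adjustment over all genes tested. With the mouse as a block, 31 members were called higher and 2 lower. Eif2b4, Eif4g2 and Eif4e2 were then no longer called (adjusted p = 0.0795, 0.0846 and 0.102 in limma), and Eef2k was called (adjusted p = 0.0475). Over the alternatives tried, their adjusted p in limma ranged from 0.0258 to 0.16 for Eif2b4, 0.015 to 0.106 for Eif4g2, 0.0256 to 0.107 for Eif4e2 and 0.0312 to 0.267 for Eef2k.

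**Figure D1:**
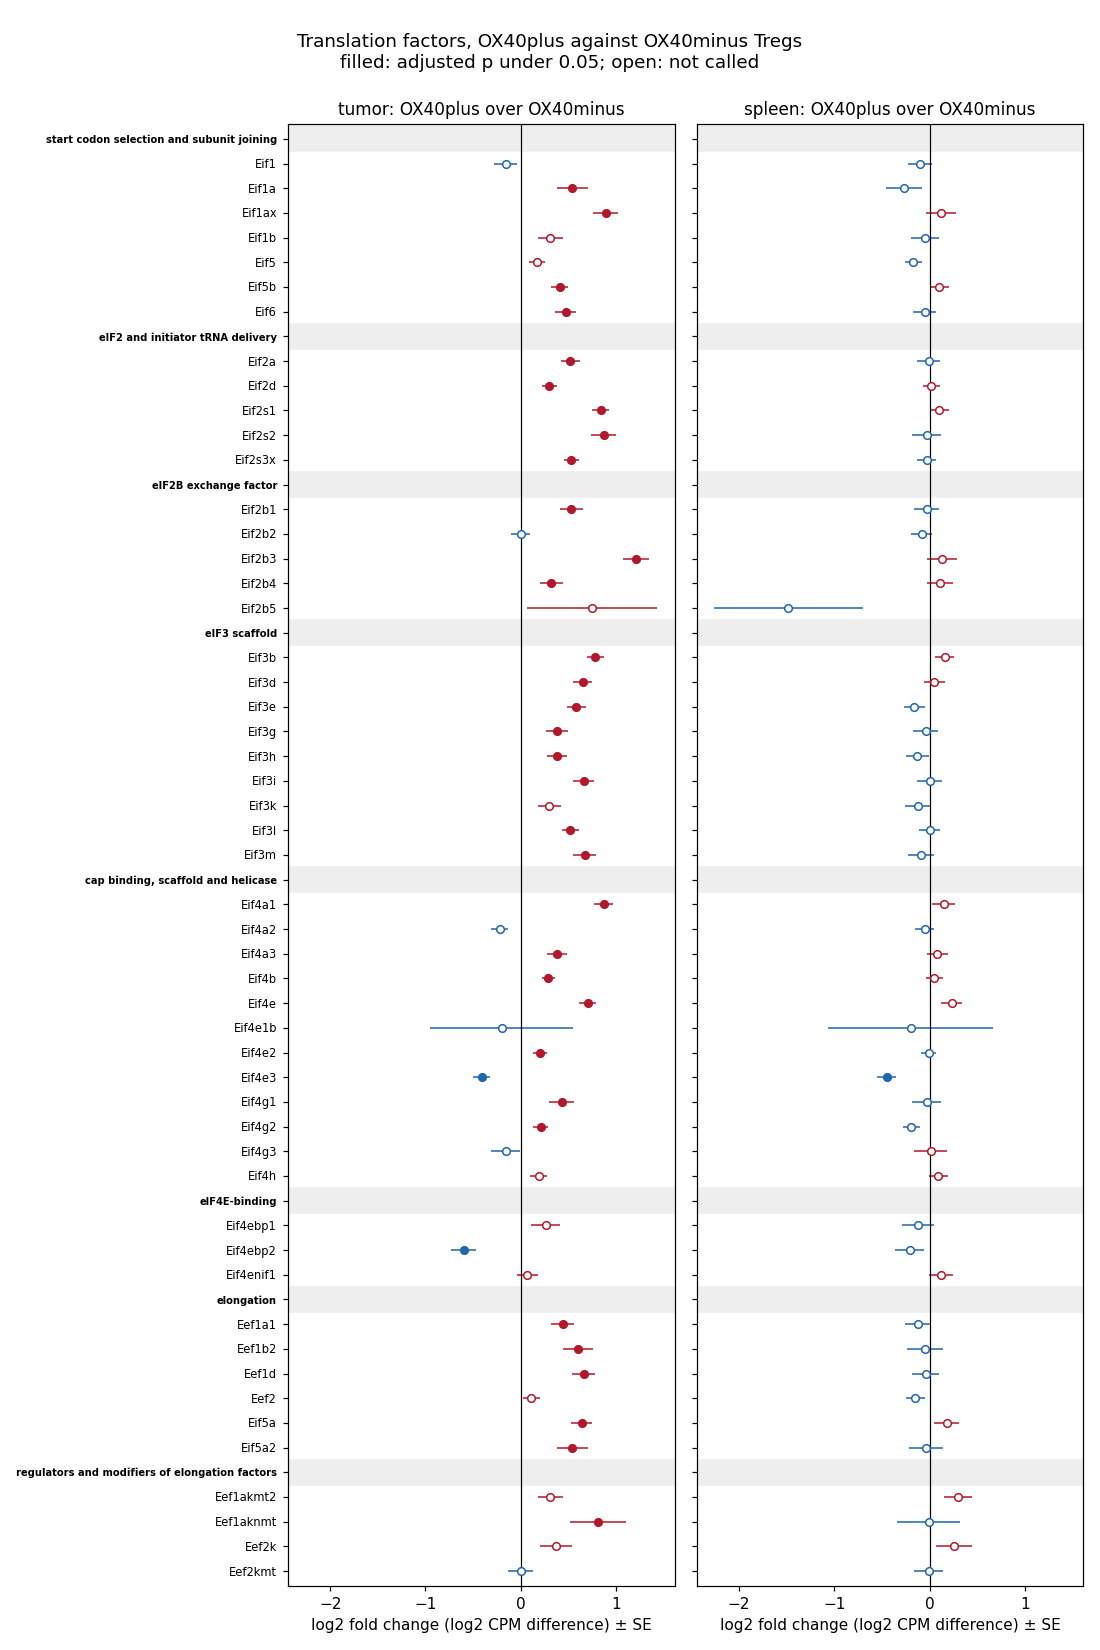
Log2 fold change of OX40plus over OX40minus Tregs for the 51 tested members, grouped by role, in tumors (left panel) and spleens (right panel). Points are limma estimates, bars are ± 1 SE, filled points passed adjusted p under 0.05, and red and blue mark positive and negative values. In the tumor panel 33 filled points lie right of 0 and 2 lie left of it, and in the spleen panel the only filled point is Eif4e3.

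Of the 5 highest log2 fold changes in tumors, 3 were in genes that form or recharge eIF2. All 5 members of the eIF2 and initiator tRNA group were higher in tumor OX40plus Tregs, as were 3 of the 5 eIF2B subunits. Eif2b3 (mm10, chromosome 4, 117019402 to 117087306), the gamma subunit of eIF2B, stood at 49.7, 56.0, 59.4 and 65.2 CPM in the 4 tumor OX40plus samples, against 26.1, 29.8, 20.1 and 24.1 CPM in the 4 tumor OX40minus samples. In spleens it stood at 15.1, 13.6 and 14.8 CPM in OX40plus and 13.7, 12 and 14 CPM in OX40minus samples. The lowest tumor OX40plus sample lay above every tumor OX40minus sample, the fold change was 2.31, and its log2 value, 1.21 ± 0.14 (SE, adjusted p = 6.56e-06), was the highest of the 51 members. Among the other subunits, Eif2b1 had a log2 fold change of 0.53 ± 0.12 (SE, adjusted p = 0.00169) and Eif2b4 of 0.32 ± 0.12 (SE, adjusted p = 0.0492). The tumor groups overlapped for Eif2b4. Eif2b2 was not called, with 91.0 to 94.4 CPM in tumor OX40plus and 88.7 to 99.4 CPM in tumor OX40minus samples (95% interval of the log2 difference -0.20 to 0.20). Eif2b5, the catalytic subunit, was low and variable, at 4.70 to 6.66 CPM in tumor OX40plus and 2.43 to 4.37 CPM in tumor OX40minus samples, and was not called.

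Eif2s1 (mm10, chromosome 12, 78861819 to 78887010) encodes the alpha subunit of eIF2, the target of the stress kinases. It stood at 285, 292, 320.1 and 373 CPM in tumor OX40plus samples, against 174, 174, 184 and 175 CPM in tumor OX40minus samples. In spleens it stood at 82.4, 89.8 and 90.1 CPM in OX40plus and 86.6, 83.1 and 74.5 CPM in OX40minus samples. The tumor groups did not overlap (log2 fold change 0.84 ± 0.09 SE, adjusted p = 3.28e-06), while the spleen groups did. Eif2s2, the beta subunit, was at 153, 152, 178 and 246 CPM in tumor OX40plus and 99.4, 96.1, 99.1 and 96.3 CPM in tumor OX40minus samples. Its spleen levels were 107, 120 and 123 CPM in OX40plus and 132, 121 and 106 CPM in OX40minus samples. Mouse 4 had the highest Eif2s2 level of the tumor OX40plus samples, and the other 3 still lay above every tumor OX40minus sample (log2 fold change 0.87 ± 0.13 SE, adjusted p = 6.29e-05). Eif2s3x, the X-linked gamma subunit, was at 122, 145, 139.9 and 142 CPM in tumor OX40plus and 94.8, 86.7, 105 and 95.2 CPM in tumor OX40minus samples. In spleens Eif2s3x was higher than in any tumor sample, at 221, 218 and 202 CPM in OX40plus and 237, 217 and 201 CPM in OX40minus samples. Its tumor OX40 difference was 0.53 ± 0.08 (SE, adjusted p = 0.000151) on the log2 scale.

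Eif2a encodes eIF2A, a separate tRNA-binding protein and not a subunit of eIF2. Its levels were 52.9, 46.8, 58.1 and 60.8 CPM in tumor OX40plus and 39.0, 33.5, 43.2 and 36.5 CPM in tumor OX40minus samples. Spleen OX40plus samples had 58.4, 64.4 and 60.0 CPM of Eif2a and spleen OX40minus samples had 61.6, 63.7 and 58.4 CPM. The tumor groups did not overlap (log2 fold change 0.52 ± 0.10 SE, adjusted p = 0.000975). Eif2d, which can place tRNA on the ribosome without GTP, was also called, with a smaller log2 difference of 0.30 ± 0.08 (SE, adjusted p = 0.0069).

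All 9 measured eIF3 subunits had positive log2 fold changes in tumors, between 0.30 and 0.78, and 8 were called. eIF3 is the multi-subunit scaffold that holds the small ribosomal subunit and its factors together. Other subunits of the complex are not analysed here. Eif3b (mm10, chromosome 5, 140419328 to 140443360), a core scaffold subunit, stood at 462, 434, 504 and 397 CPM in tumor OX40plus and 259, 265, 292 and 233 CPM in tumor OX40minus samples. Its spleen levels were 269.6, 266 and 287 CPM in OX40plus and 266, 237 and 233 CPM in OX40minus samples. The tumor groups were far apart (log2 fold change 0.78 ± 0.09 SE, adjusted p = 6.47e-06), and the spleen OX40plus samples lay level with or just above the highest spleen OX40minus sample. Eif3d, the subunit that can bind the cap of some mRNAs, was at 287, 267, 296 and 284 CPM in tumor OX40plus and 170.2, 205, 182 and 168 CPM in tumor OX40minus samples. Spleen levels of Eif3d were 212, 201 and 253 CPM in OX40plus and 251, 206 and 191 CPM in OX40minus samples. The tumor groups again did not overlap (log2 fold change 0.65 ± 0.10 SE, adjusted p = 9.03e-05).

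Eif3e and Eif3h were higher in every spleen sample than in tumor OX40minus samples. Eif3e was at 182, 192, 209 and 240.1 CPM in tumor OX40plus and 136, 135, 143 and 133 CPM in tumor OX40minus samples, and its spleen levels were 293, 283 and 335 CPM in OX40plus and 394, 328 and 300.4 CPM in OX40minus samples. Within tumors the groups did not overlap (log2 fold change 0.58 ± 0.10 SE, adjusted p = 0.000253). Eif3h was at 279.9, 284, 289.8 and 326 CPM in tumor OX40plus and 239, 225, 231 and 209 CPM in tumor OX40minus samples, and at 406, 376 and 483 CPM in spleen OX40plus and 549.9, 426 and 409 CPM in spleen OX40minus samples. Its tumor log2 difference was 0.38 ± 0.10 (SE, adjusted p = 0.00737), with no overlap.

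Eif3i, Eif3l and Eif3m had tumor OX40minus levels near or under those of the spleen and higher tumor OX40plus levels. Eif3i, a WD-repeat subunit, was at 151, 157, 169.5 and 196 CPM in tumor OX40plus and 103, 108, 105 and 108 CPM in tumor OX40minus samples, and at 149, 139 and 184 CPM in spleen OX40plus and 185, 145 and 142 CPM in spleen OX40minus samples. Its log2 fold change in tumors was 0.66 ± 0.11 (SE, adjusted p = 0.000194). Eif3l was at 224, 277, 257 and 279 CPM in tumor OX40plus and 179.7, 197, 183 and 164 CPM in tumor OX40minus samples, and at 174, 165 and 182 CPM in spleen OX40plus and 201, 169 and 156 CPM in spleen OX40minus samples. Its tumor difference was 0.52 ± 0.09 (SE, adjusted p = 0.000479) in log2. Eif3m was at 191, 200.3, 205 and 273 CPM in tumor OX40plus and 139, 117, 151 and 136 CPM in tumor OX40minus samples, and at 166, 165 and 204 CPM in spleen OX40plus and 219, 187 and 163 CPM in spleen OX40minus samples. The highest Eif3m value was that of mouse 4 in tumor OX40plus, and the tumor groups did not overlap (log2 fold change 0.67 ± 0.12 SE, adjusted p = 0.00058). Eif3g was also called (0.38 ± 0.12 SE, adjusted p = 0.0166), and Eif3k, at 0.30 with an adjusted p of 0.0684 in limma, was not.

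The list of cap binding, scaffold and helicase genes, here the cap list, reaches beyond eIF4F itself and did not move as a block. Of its 12 members, 7 were higher in tumor OX40plus Tregs, 1 was lower and 4 were not called, and close paralogs differed in direction. Eif4e, Eif4a1 and Eif4g1 were among the higher ones. Eif4e (mm10, chromosome 3, 138526179 to 138559696), the cap-binding protein, stood at 298, 324, 355 and 391 CPM in tumor OX40plus and 201, 212, 220.3 and 204 CPM in tumor OX40minus samples. Its spleen levels were 77.6, 73.0 and 80.5 CPM in OX40plus and 73.7, 65.5 and 59.0 CPM in OX40minus samples. No 2 neighbouring groups overlapped except those of the spleen, and the tumor log2 fold change was 0.70 ± 0.09 (SE, adjusted p = 2.4e-05). Eif4e2, a cap-binding homolog known as a repressor of initiation, was at 189, 186, 190.2 and 199 CPM in tumor OX40plus and 173, 158, 172 and 163 CPM in tumor OX40minus samples, and at 121, 119 and 131 CPM in spleen OX40plus and 136, 124 and 114 CPM in spleen OX40minus samples. Its tumor difference was small (0.20 ± 0.07 SE, adjusted p = 0.0429). Eif4e3, another cap-binding homolog, was at 82.5, 77.3, 94.2 and 91.0 CPM in tumor OX40plus and 112, 121, 118 and 106 CPM in tumor OX40minus samples. In spleens Eif4e3 was at 33.5, 34.1 and 30.6 CPM in OX40plus and 44.5, 43.7 and 45.3 CPM in OX40minus samples. It was lower in OX40plus Tregs in both tissues without overlap, by -0.41 ± 0.09 (SE, adjusted p = 0.0015) in tumors and -0.45 ± 0.10 (SE, adjusted p = 0.00952) in spleens on the log2 scale. Eif4e1b, known from oocytes, was at most 0.696 CPM in any sample.

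The RNA helicases of the cap list also differed among themselves. Eif4a1 (mm10, chromosome 11, 69666936 to 69672423), which unwinds mRNA leaders, stood at 737, 703, 823 and 913 CPM in tumor OX40plus and 415, 441, 469.7 and 408 CPM in tumor OX40minus samples. Its spleen levels were 453, 436 and 562 CPM in OX40plus and 481, 412 and 407 CPM in OX40minus samples. Tumor OX40plus samples lay above all others (log2 fold change in tumors 0.87 ± 0.10 SE, adjusted p = 8.88e-06). Its close paralog Eif4a2 (mm10, chromosome 16, 23107444 to 23114136) was at 132, 136, 133 and 167 CPM in tumor OX40plus and 150.2, 173, 179 and 159 CPM in tumor OX40minus samples, and at 390.5, 402 and 430.3 CPM in spleen OX40plus and 424, 417 and 421 CPM in spleen OX40minus samples. The tumor groups overlapped through mouse 4 of the OX40plus group, and the log2 difference of -0.22 ± 0.09 (SE, adjusted p = 0.0543) was not called. Without that sample it was -0.30 with an adjusted p of 0.00426 in limma, where the range over all alternatives was 0.00426 to 0.15. The level of Eif4a1 over that of Eif4a2 in the same sample was 5.60 ± 0.431 in tumor OX40plus (SD, n = 4), 2.63 ± 0.092 in tumor OX40minus (n = 4), 1.18 ± 0.113 in spleen OX40plus (n = 3) and 1.03 ± 0.092 in spleen OX40minus Tregs (n = 3). Eif4a3, the helicase of the exon junction complex, was at 310.4, 317, 350 and 325 CPM in tumor OX40plus and 228, 255, 272 and 247 CPM in tumor OX40minus samples, and at 138, 129 and 160 CPM in spleen OX40plus and 156, 131 and 118 CPM in spleen OX40minus samples. Its tumor groups did not overlap (0.38 ± 0.10 SE, adjusted p = 0.0052). Eif4b, which stimulates the helicase, was at 143, 152, 169 and 165 CPM in tumor OX40plus and 133, 128, 138 and 117 CPM in tumor OX40minus samples, far under its spleen levels of 538, 512 and 542 CPM in OX40plus and 530.2, 496 and 509 CPM in OX40minus samples. Its OX40 difference in tumors was 0.29 ± 0.07 (SE, adjusted p = 0.00655) in log2. Eif4h, a second helicase partner, was not called in tumors (0.19 ± 0.09 SE, adjusted p = 0.113).

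The eIF4G scaffolds, which join the cap-binding protein to the helicase and to eIF3, differed in the spread between mice. Eif4g1 was at 336, 305, 313 and 204 CPM in tumor OX40plus and 191, 233, 204 and 217 CPM in tumor OX40minus samples, and at 468, 473 and 395 CPM in spleen OX40plus and 449, 451 and 457 CPM in spleen OX40minus samples. It was called in tumors (0.43 ± 0.13 SE, adjusted p = 0.0133), although mouse 4 of the OX40plus group lay within the OX40minus range. Eif4g3 was at 146, 113, 108 and 73.6 CPM in tumor OX40plus and 119, 125, 109 and 125 CPM in tumor OX40minus samples, and at 290.1, 289.5 and 246 CPM in spleen OX40plus and 255, 279 and 284 CPM in spleen OX40minus samples. Mouse 4 was again the lowest tumor OX40plus sample, the groups overlapped, and Eif4g3 was not called (-0.16 ± 0.15 SE, adjusted p = 0.429). Eif4g2, a family member without a binding site for the cap-binding protein, was at 1270.2, 1209, 1178 and 1120.1 CPM in tumor OX40plus and 1016, 1013, 1073 and 1018 CPM in tumor OX40minus samples. Spleen levels of Eif4g2 were 735, 751 and 609 CPM in OX40plus and 788, 803 and 782 CPM in OX40minus samples. Its tumor difference was 0.21 ± 0.08 (SE, adjusted p = 0.042) in log2, near the threshold.

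Of the 3 eIF4E-binding members, 1 was lower in tumor OX40plus Tregs and 2 were not called. Eif4ebp2 (mm10, chromosome 10, 61428491 to 61452661), a repressor that binds eIF4E until mTOR phosphorylates it, stood at 66.1, 51.2, 59.2 and 37.7 CPM in tumor OX40plus and 82.1, 85.8, 71.7 and 79.5 CPM in tumor OX40minus samples. In spleens it stood at 416, 398 and 382 CPM in OX40plus and 450.2, 463 and 464 CPM in OX40minus samples. Tumor OX40plus samples were the lowest of all 14 without overlap, and the log2 fold change of -0.60 ± 0.13 (SE, adjusted p = 0.00164) was the most negative of the members. Eif4ebp1, its paralog, was at 44.3, 51.6, 49.4 and 64.6 CPM in tumor OX40plus and 41.3, 45.6, 49.5 and 37.8 CPM in tumor OX40minus samples, and at 17.2, 15.4 and 22.5 CPM in spleen OX40plus and 21.4, 19.6 and 17.9 CPM in spleen OX40minus samples. The tumor groups overlapped, and Eif4ebp1 was not called between gates (0.26 ± 0.15 SE, adjusted p = 0.175). The level of Eif4e over that of Eif4ebp2 in the same sample was 6.80 ± 2.50 in tumor OX40plus (SD, n = 4), 2.64 ± 0.295 in tumor OX40minus (n = 4), 0.194 ± 0.015 in spleen OX40plus (n = 3) and 0.144 ± 0.0184 in spleen OX40minus Tregs (n = 3). Eif4enif1, a transporter of the cap-binding protein, was not called in tumors (0.07 ± 0.11 SE, adjusted p = 0.669).

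**Figure D2:**
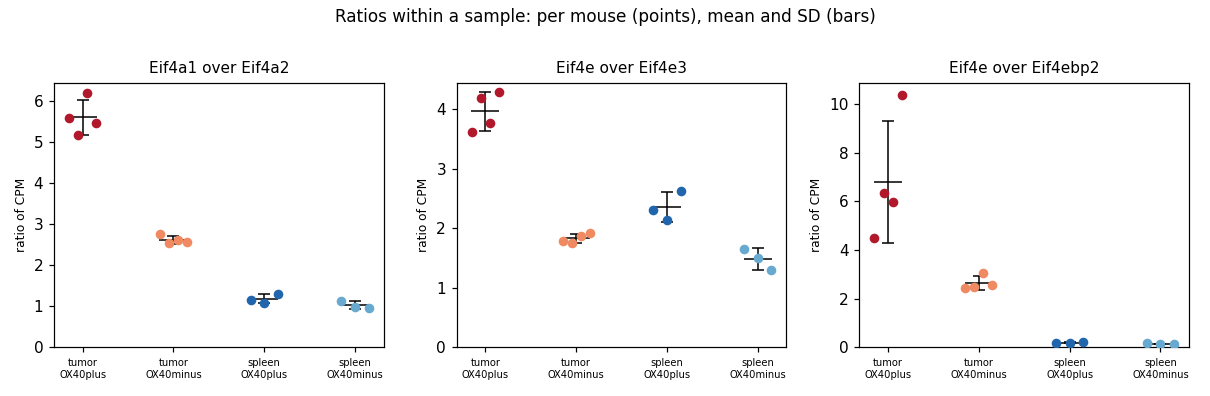
Ratio of the CPM levels of 2 members within each sample, with 1 point per mouse and gate and bars for the mean ± SD of each group. Eif4a1 over Eif4a2 was highest in tumor OX40plus samples, at 5.16 to 6.19, and lay between 0.967 and 1.31 in spleen samples, and Eif4e over Eif4ebp2 was 4.51 to 10.4 in tumor OX40plus samples and 0.127 to 0.211 in spleen samples.

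The promoters shown are those of Eif4e, Eif4a1 and Eif4g1, called higher between the tumor gates, and of Eif4a2, not called there. The E-box CACGTG, a site bound by Myc and related factors, is known from several genes of the cap list. These 4 promoters are a selection, and Eif4h, not shown, has the motif and was not called. The 250 bases before 1 RefSeq start of each gene are printed (GRCm38.p6, the mm10 build, 5′ to 3′ on the gene's strand), with CACGTG in capitals. Where a gene had several starts, a window that holds the motif was chosen if any did. The Eif4e and Eif4g1 windows lie inside the gene coordinates, which begin at 138526179 and 20668313, so they precede a start within the gene. The motif reads the same on both strands.
Eif4e (chr3:138527018-138527267, plus strand): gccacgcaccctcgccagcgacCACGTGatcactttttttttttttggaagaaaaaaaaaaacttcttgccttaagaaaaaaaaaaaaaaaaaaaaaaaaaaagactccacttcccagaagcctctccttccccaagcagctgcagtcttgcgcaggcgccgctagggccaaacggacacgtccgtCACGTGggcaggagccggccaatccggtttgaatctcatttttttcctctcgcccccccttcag
Eif4a1 (chr11:69672424-69672673, minus strand): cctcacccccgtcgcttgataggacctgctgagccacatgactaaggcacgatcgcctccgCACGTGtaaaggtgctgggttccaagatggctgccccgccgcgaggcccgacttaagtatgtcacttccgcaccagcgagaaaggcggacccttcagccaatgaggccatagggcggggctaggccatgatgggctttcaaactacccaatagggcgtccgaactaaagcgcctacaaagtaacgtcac
Eif4g1 (chr16:20672477-20672726, plus strand): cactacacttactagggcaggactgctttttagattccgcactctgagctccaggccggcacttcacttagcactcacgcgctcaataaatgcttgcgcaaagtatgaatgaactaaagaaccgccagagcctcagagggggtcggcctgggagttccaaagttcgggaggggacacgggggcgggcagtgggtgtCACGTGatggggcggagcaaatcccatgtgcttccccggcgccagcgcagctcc
Eif4a2 (chr16:23107218-23107467, plus strand): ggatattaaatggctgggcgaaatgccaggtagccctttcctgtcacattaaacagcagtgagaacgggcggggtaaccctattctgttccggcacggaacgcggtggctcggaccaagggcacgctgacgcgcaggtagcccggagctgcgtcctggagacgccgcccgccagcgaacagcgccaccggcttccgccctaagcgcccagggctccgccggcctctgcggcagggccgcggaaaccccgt
The Eif4e window holds 2 copies of the motif, beginning 228 and 64 bases before the start, those of Eif4a1 and Eif4g1 hold 1 copy each, 189 and 54 bases before it, and that of Eif4a2 holds none. A RefSeq promoter was matched for 40 of the 52 members. The motif was found in at least 1 window of 11 of these 40 genes (27.5%). Over all genes tested with a matched promoter, this held for 955 of 10070 (9.48%). The number of windows per gene was not compared. The other members with a copy were Eef1aknmt, Eef2, Eef2k, Eif1b, Eif3k, Eif4h, Eif5a and Eif5a2. Of the 11 members with the motif, 6 were called higher between the tumor gates (median log2 difference 0.43), and of the 29 without it, 19 were (median 0.38). Eef1akmt1, Eef1d, Eif1a, Eif2b3, Eif3e, Eif3h, Eif3i, Eif4e1b, Eif4e3, Eif4ebp1, Eif4g2 and Eif6 were not matched.

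Among the factors of start codon selection and subunit joining, 4 of 7 were higher in tumor OX40plus Tregs. Eif1ax (mm10, chromosome X, 159372178 to 159389928), an X-linked form of eIF1A, which helps the small subunit scan, stood at 121, 113, 155 and 170 CPM in tumor OX40plus and 71.1, 68.1, 88.9 and 70.5 CPM in tumor OX40minus samples. In spleens it stood at 56.8, 62.5 and 67.4 CPM in OX40plus and 66.3, 52.1 and 53.7 CPM in OX40minus samples. Its tumor log2 fold change of 0.89 ± 0.13 (SE, adjusted p = 8.89e-05) was the second highest of the members, with no overlap. Eif1a, an autosomal form of the same factor, was at 72.4, 90.5, 72.8 and 86.5 CPM in tumor OX40plus and 67.2, 47.9, 55.3 and 52.0 CPM in tumor OX40minus samples, and at 18.8, 18.3 and 10.9 CPM in spleen OX40plus and 17.0, 19.8 and 19.5 CPM in spleen OX40minus samples. It was called in tumors as well (0.54 ± 0.16 SE, adjusted p = 0.016). Because both encode nearly the same protein, the split of reads between Eif1a and Eif1ax is uncertain. The paralogs Eif1 and Eif1b encode the factor that guards start codon choice. Eif1 was at 668, 686, 720.1 and 808 CPM in tumor OX40plus and 785, 784, 799.9 and 838 CPM in tumor OX40minus samples, and at 428, 375 and 562 CPM in spleen OX40plus and 566, 458 and 428 CPM in spleen OX40minus samples. The tumor groups overlapped and Eif1 was not called (-0.16 ± 0.12 SE, adjusted p = 0.309). Eif1b was at 54.1, 50.6, 52.0 and 69.8 CPM in tumor OX40plus and 46.2, 42.3, 45.0 and 47.4 CPM in tumor OX40minus samples, and at 49.2, 49.2 and 66.1 CPM in spleen OX40plus and 64.9, 53.6 and 50.8 CPM in spleen OX40minus samples. It was not called in tumors although the samples did not overlap (0.31 ± 0.13 SE, adjusted p = 0.0629). Eif5b, the GTPase that joins the ribosomal subunits, and Eif6, which keeps the large subunit free until it is ready, were both called (0.41 ± 0.09 SE, adjusted p = 0.00187 and 0.47 ± 0.11 SE, adjusted p = 0.00255 in log2), and Eif5, the GTPase activator of eIF2, was not (0.17 ± 0.08 SE, adjusted p = 0.0877).

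Of the 6 elongation factors, 5 were higher in tumor OX40plus Tregs, and Eef2 was not called. Eef1a1 (mm10, chromosome 9, 78478449 to 78489151), which delivers aminoacyl-tRNA, stood at 2348, 2543, 2661 and 3145 CPM in tumor OX40plus and 1888, 2011, 1989 and 1933 CPM in tumor OX40minus samples. Its spleen levels were 9082, 8322 and 10479 CPM in OX40plus and 11837, 9455 and 9063 CPM in OX40minus samples. Within tumors the groups did not overlap (0.44 ± 0.12 SE, adjusted p = 0.00743 in log2), and both lay far under the spleen. Per kilobase of transcript, Eef1a1 had the highest level of the members in each of the 4 groups, with 1491 CPM per kb in tumor OX40plus, 1089.8 in tumor OX40minus, 5181 in spleen OX40plus and 5640 in spleen OX40minus Tregs. The second was Eif5a in tumors, at 1332 CPM per kb in OX40plus and 853 in OX40minus Tregs, and Eef2 in spleens, at 1528 CPM per kb in OX40plus and 1697 in OX40minus Tregs. Eef1a1 has many near-identical copies in the genome, so its count is uncertain.

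The exchange factors that recharge eEF1A followed a similar order of groups. Eef1b2 was at 111, 138, 163 and 211 CPM in tumor OX40plus and 109, 99.6, 96.4 and 95.9 CPM in tumor OX40minus samples, and at 643, 591 and 818 CPM in spleen OX40plus and 863, 657 and 614 CPM in spleen OX40minus samples. The lowest tumor OX40plus sample was just above the highest tumor OX40minus sample (0.60 ± 0.16 SE, adjusted p = 0.00882 in log2). Eef1d was at 172, 169, 223 and 213 CPM in tumor OX40plus and 128, 116, 123 and 121 CPM in tumor OX40minus samples, and at 227, 215 and 289.7 CPM in spleen OX40plus and 302, 232 and 220.3 CPM in spleen OX40minus samples. Its tumor difference was 0.66 ± 0.12 (SE, adjusted p = 0.000507), without overlap. Eef2, which moves the ribosome by a codon, was at 1076, 1033, 1108 and 1004 CPM in tumor OX40plus and 935, 1017, 959 and 993 CPM in tumor OX40minus samples, and at 4743, 4418 and 5004 CPM in spleen OX40plus and 5969, 4982 and 4774 CPM in spleen OX40minus samples. The tumor groups overlapped, and the 95% interval of the log2 difference, -0.07 to 0.30, leaves room for a small difference. Eef2k, the kinase that inhibits eEF2, was at 29.3, 20.1, 20.8 and 19.1 CPM in tumor OX40plus and 21.8, 14.4, 18.7 and 14.1 CPM in tumor OX40minus samples, and at 32.2, 29.3 and 28.6 CPM in spleen OX40plus and 27.2, 22.8 and 25.3 CPM in spleen OX40minus samples. Eef2k overlapped between the tumor groups and was not called (0.37 ± 0.17 SE, adjusted p = 0.0925).

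Eif5a (mm10, chromosome 11, 69916714 to 69921958), which helps ribosomes through difficult peptide bonds and carries the modified residue hypusine, stood at 1573, 1590, 1870.2 and 1805 CPM in tumor OX40plus and 1087, 1067, 1198 and 1025 CPM in tumor OX40minus samples. In spleens it stood at 618, 597 and 734 CPM in OX40plus and 696, 542 and 491 CPM in OX40minus samples. Its order of tissues was the opposite of that of Eef1a1, and the tumor gates did not overlap (0.64 ± 0.11 SE, adjusted p = 0.000252 in log2). The paralog Eif5a2 was at 26.5, 23.1, 25.2 and 24.6 CPM in tumor OX40plus and 19.4, 14.8, 19.0 and 15.8 CPM in tumor OX40minus samples, and at 14.7, 15.1 and 10.0 CPM in spleen OX40plus and 13.1, 14.5 and 12.5 CPM in spleen OX40minus samples. It was called in tumors with a log2 difference of 0.54 ± 0.16 (SE, adjusted p = 0.014). Of the 4 tested genes that modify elongation factors, Eef1aknmt, a methyltransferase of eEF1A, was called higher (0.81 ± 0.29 SE, adjusted p = 0.034), with 14.1 to 39.1 CPM in tumor OX40plus and 9.03 to 21.5 CPM in tumor OX40minus samples, ranges that overlap. Leaving out any 1 of mice 1, 2 and 3 of tumor OX40plus, or mouse 4 of tumor OX40minus, ended that call.

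**Figure D3:**
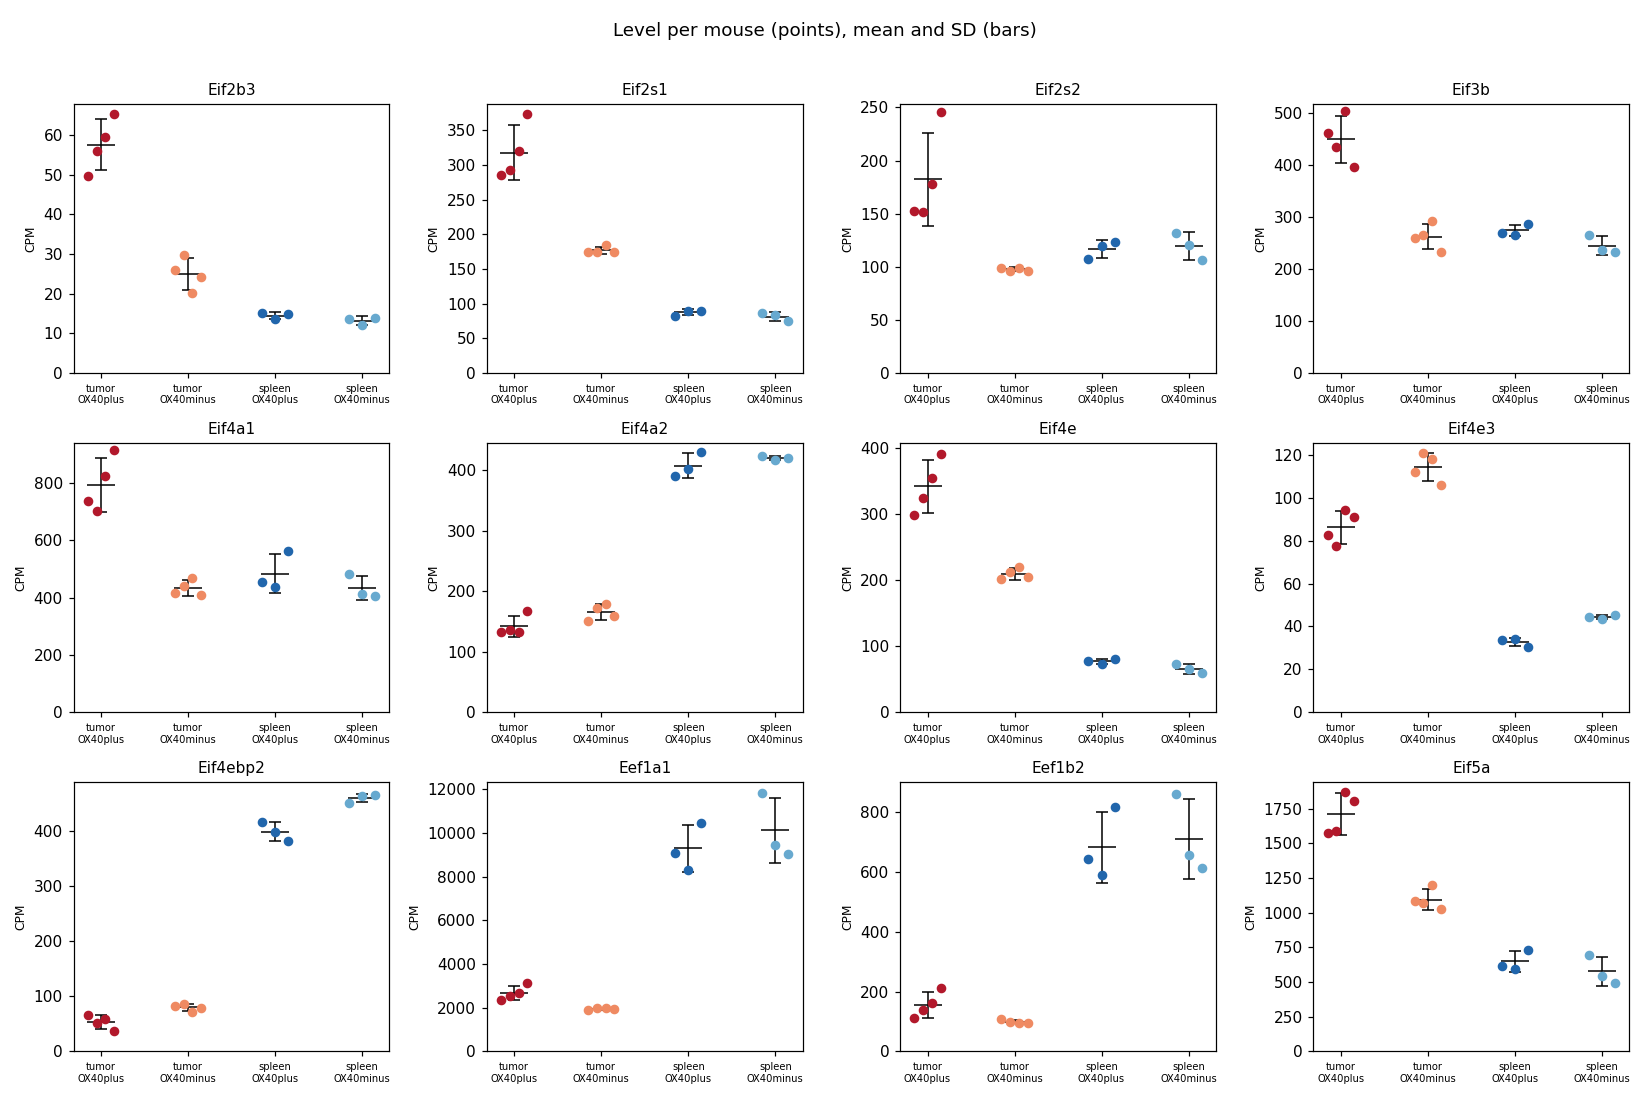
Level in CPM of 12 members in each sample, with 1 point per mouse and gate and bars for the mean ± SD of each group (4, 4, 3 and 3 mice from left to right). Eif2b3, Eif2s1, Eif4e and Eif5a were highest in tumor OX40plus and lowest in spleen samples, Eef1a1, Eef1b2, Eif4a2 and Eif4ebp2 were highest in spleen samples, and Eif4e3 was lower in OX40plus than in OX40minus samples of both tissues.

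In spleens, 0 of the 51 members were called higher and 1, Eif4e3, was called lower in OX40plus Tregs by limma. Over all genes 4.34% were called higher and 3.55% lower in this comparison, 7.89% in all. At an unadjusted p under 0.05, 0 members were higher, and limma-voom called 0 higher. The median log2 fold change was -0.03 over the members and 0.01 over all genes tested. Of the 49 members with a mean of at least 10 CPM in each of the 4 groups, 43 had a 95% interval of the log2 difference that lay within ± 0.5. The intervals of Eif2b3 (-0.20 to 0.47), Eif2s1 (-0.11 to 0.32), Eif2s2 (-0.34 to 0.28), Eif4a1 (-0.10 to 0.40) and Eif3b (-0.05 to 0.38) all lay below their tumor estimates of 1.21, 0.84, 0.87, 0.87 and 0.78. Without mouse 3 of spleen OX40plus, Eif2b5 was called lower too, which made 2 members. The 8 cell cycle genes were higher in OX40plus Tregs in both tissues, 8 of 8 called in tumors and 7 of 8 in spleens, while the 9 tested macrophage genes were lower in both.

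The OX40 difference was larger in tumors than in spleens for 17 members, tested as an interaction in limma, and smaller for 0. Over all genes 4.49% were called higher and 6.33% lower in the interaction, 10.8% in all. At an unadjusted p under 0.05, 0 members were lower, and limma-voom called 0 lower. The 17 included Eif2s1, Eif2s2, Eif2s3x, Eif2a and Eif2b3 of the eIF2 machinery and Eif3b, Eif3d, Eif3e, Eif3h, Eif3i, Eif3l and Eif3m of eIF3. The others were Eif4a1, Eif4e and Eif4g2 of the cap list, Eif1ax and Eef1d. The highest values were 1.08 ± 0.21 (SE, adjusted p = 0.00405) for Eif2b3, 0.90 ± 0.19 (SE, adjusted p = 0.00806) for Eif2s2 and 0.77 ± 0.21 (SE, adjusted p = 0.0255) for Eif1ax, as differences between log2 fold changes. The same differences were 0.73 ± 0.13 (SE, adjusted p = 0.00272) for Eif2s1 and 0.72 ± 0.16 (SE, adjusted p = 0.00869) for Eif4a1. With the mouse as a block within tissue, 11 members were called, 10 of them among the 17. The count was 7 without mouse 1 of spleen OX40minus, 8 without mouse 1 of spleen OX40plus, 9 without mouse 2 of spleen OX40plus and 11 without mouse 3 of tumor OX40plus. Eif2b3, Eif2s1, Eif2s2, Eif2s3x, Eif3b, Eif3e and Eif4a1 were called in every setting tried. For Eif4e3, lower in OX40plus Tregs of both tissues, the difference between tissues was 0.04 ± 0.13 (SE, adjusted p = 0.905).

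Within the spleen groups, the members tended to be high or low in the same mice. How often each mouse was highest or lowest over all genes was not counted, in spleens or in tumors. Spleen OX40minus mouse 1 had the highest value of its group for 38 of the 51 members, and mouse 3 had the lowest for 37. Among spleen OX40plus samples, mouse 3 had the highest value for 34 members. The share of counts taken by 69 ribosomal protein genes moved with this, at 8.13% in spleen OX40plus mouse 3 and 8.53% in spleen OX40minus mouse 1, against 5.84% to 6.71% in the other spleen samples. In tumors it was 2.25% to 3.29% in OX40plus samples, the highest in mouse 4, and 1.71% to 1.84% in OX40minus samples. Its part in the differences was not tested. Tumor OX40plus mouse 4 had the highest value of its group for 24 members and the lowest for 11, among them Eif4g1, Eif4g3 and Eif4ebp2. Without this mouse, 32 members were called higher and 3 lower between the tumor gates.

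Between tissues the members split. In OX40plus Tregs, 28 of 51 were higher and 17 were lower in tumors than in spleens, where 30.2% of all genes were called higher and 34.3% lower, 64.5% in all. In OX40minus Tregs, 17 were higher and 21 were lower, where 29.7% of all genes were called higher and 29.3% lower, 59.0% in all. The median log2 fold change of tumor over spleen was 0.35 in OX40plus and -0.25 in OX40minus Tregs over the members, and -0.13 and -0.03 over all genes in the same order of gates. These comparisons share no sample, but they came from 1 fit with a pooled spread per gene. Per the labels, both gates of a tissue came from the same mice, so the comparisons are not independent. In both gates 17 members were higher and another 17 were lower in tumors, and no member was called in opposite directions. The same count over all genes was not made. Per gate, the members' shares were 54.9% higher and 33.3% lower in OX40plus and 33.3% higher and 41.2% lower in OX40minus Tregs. Those called lower in OX40plus and higher in OX40minus Tregs were near the shares of all genes. The lower ones of each gate include Eif4e1b, at 0 to 0.377 CPM in tumor and 0.4 to 0.696 CPM in spleen samples. Eif4e1b passed the filter through its spleen samples, where it is higher, so the filter favoured its call as lower in tumors. Leaving out 1 sample ended some of these calls in limma. In OX40plus Tregs they were those of Eif2b5, Eef1d, Eef2k and Eef2kmt, with adjusted p of up to 0.248, 0.226, 0.125 and 0.068 in that order. In OX40minus Tregs they were those of Eif4h, Eif2b2, Eif1ax, Eif3k, Eef2kmt and Eef2k, with adjusted p of up to 0.207, 0.189, 0.131, 0.0693, 0.0635 and 0.057 in that order. Scaling by library size alone moved the median of all genes in OX40plus Tregs to -0.235, and the members' counts were then 28 higher and 18 lower. In OX40minus Tregs the counts were 16 higher and 25 lower with this scaling, 14 higher and 24 lower with scaling by the median of ratios, and 18 higher and 18 lower without mouse 1 of spleen OX40minus.

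**Figure D4:**
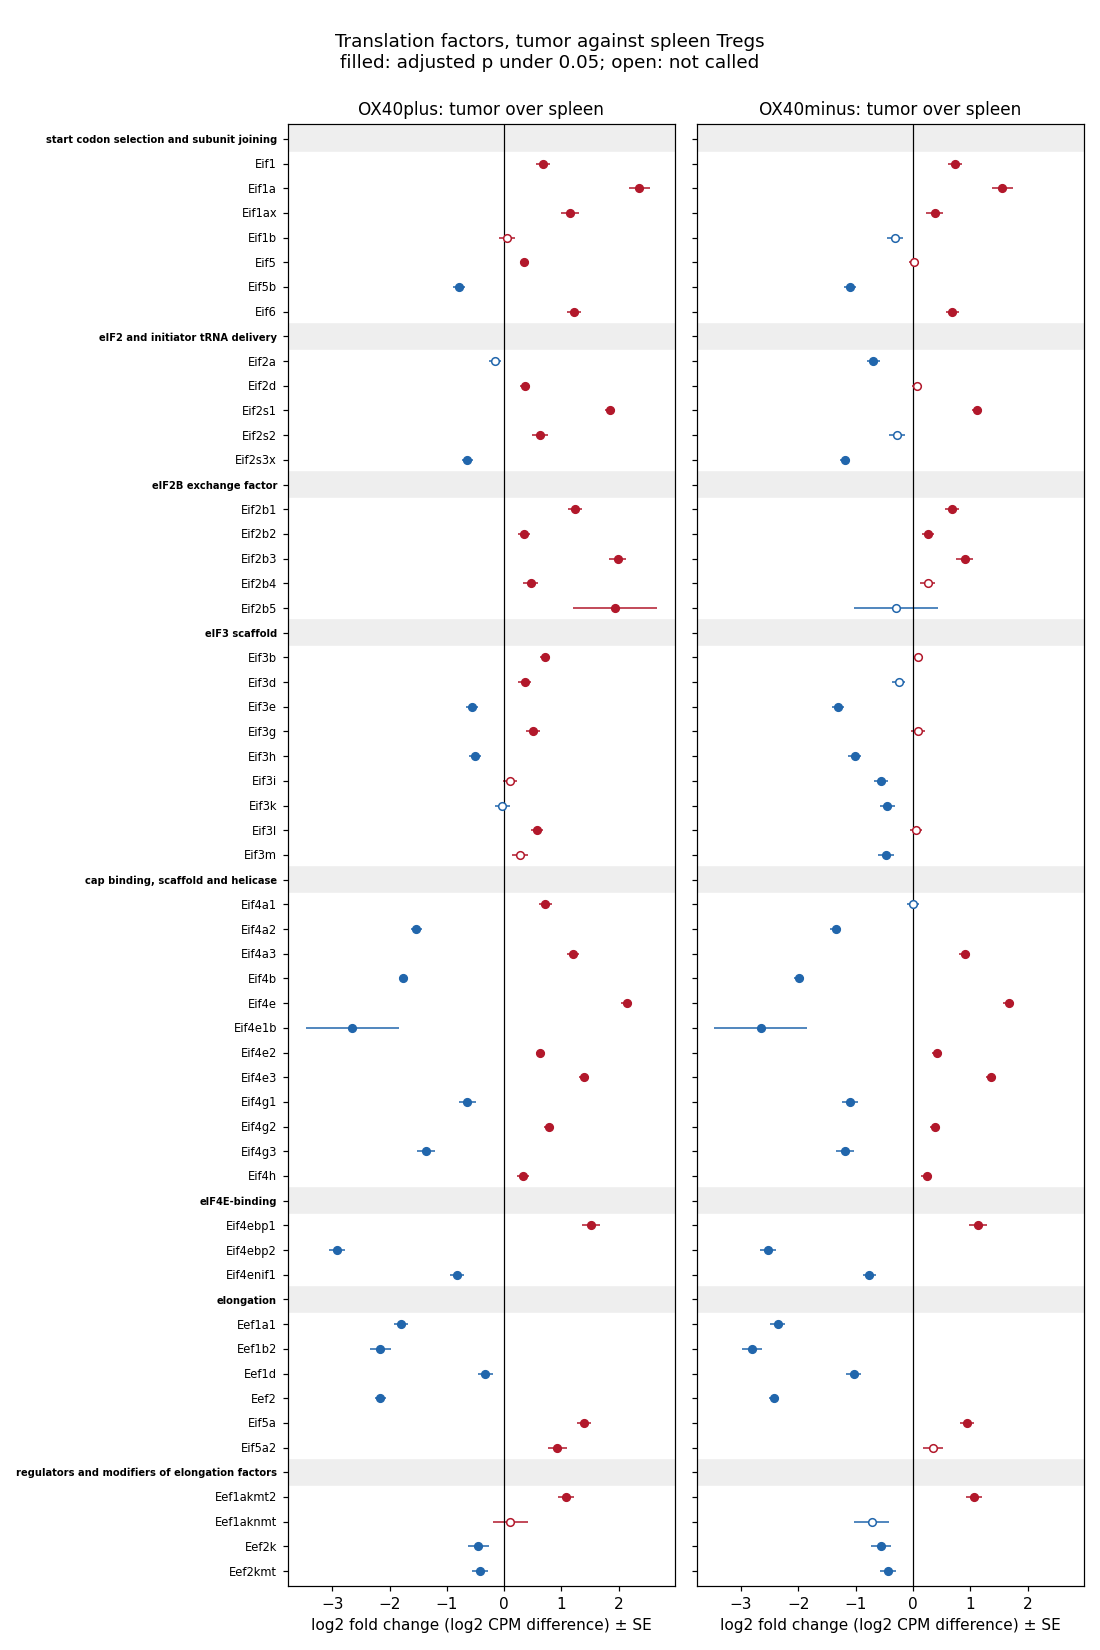
Log2 fold change of tumor over spleen for the 51 tested members, grouped by role, in OX40plus (left panel) and OX40minus Tregs (right panel). Points are limma estimates, bars are ± 1 SE, filled points passed adjusted p under 0.05, and red and blue mark positive and negative values. Eif4e and Eif1a lie far to the right and Eef1a1, Eef1b2, Eef2, Eif4b and Eif4ebp2 far to the left in both panels.

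Elongation factors made up most of the tissue difference in level. Their summed level was 5814 ± 503 CPM in tumor OX40plus (SD, n = 4) and 15607 ± 1608 CPM in spleen OX40plus Tregs (n = 3). It was 4265 ± 107 CPM in tumor OX40minus (n = 4) and 16912 ± 2423 CPM in spleen OX40minus Tregs (n = 3). The log2 fold change of tumor over spleen was -1.80 ± 0.13 (SE, adjusted p = 4.74e-09) in OX40plus and -2.36 ± 0.13 (SE, adjusted p = 2.84e-10) in OX40minus Tregs for Eef1a1. For Eef2 it was -2.16 ± 0.09 (SE, adjusted p = 1.9e-11) in OX40plus and -2.42 ± 0.09 (SE, adjusted p = 6.85e-12) in OX40minus Tregs, and for Eef1b2 -2.16 ± 0.18 (SE, adjusted p = 2.38e-08) and -2.81 ± 0.18 (SE, adjusted p = 1.56e-09) in the same order. Eif5a stood against them, higher in tumors by 1.40 ± 0.12 (SE, adjusted p = 3.52e-08) in OX40plus and 0.94 ± 0.12 (SE, adjusted p = 4.57e-06) in OX40minus Tregs. The members' share of all counts was 1.41% to 1.57% in tumor OX40plus and 2.33% to 2.64% in spleen OX40plus samples, and 1.13% to 1.17% in tumor OX40minus and 2.41% to 2.80% in spleen OX40minus samples. Without Eef1a1 these shares were 1.17% to 1.27% in tumor OX40plus and 1.45% to 1.57% in spleen OX40plus samples. The ribosomal protein share, given above, was lower in tumors as well.

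The initiation factors were mixed between tissues. All 5 eIF2B subunits were called higher in tumor than in spleen OX40plus Tregs, and 3 of 5 were in OX40minus Tregs. Eif2b3 was at 1.98 ± 0.15 (SE, adjusted p = 8.65e-09) in OX40plus and 0.90 ± 0.15 (SE, adjusted p = 7.03e-05) in OX40minus Tregs. For Eif2b5 the OX40plus groups overlapped, at 4.70 to 6.66 CPM in tumor and 0.754 to 7.07 CPM in spleen samples. Its call (adjusted p = 0.0288 in limma) was lost in 7 settings. Of the 9 eIF3 subunits, 4 were higher and 2 lower in tumor OX40plus Tregs, while 0 were higher and 5 lower in tumor OX40minus Tregs by limma. In that gate 0 eIF3 subunits were higher at an unadjusted p under 0.05, and 0 by limma-voom. Eif2s1 was higher in tumors in both gates (1.85 ± 0.09 SE, adjusted p = 1.09e-10 in OX40plus and 1.12 ± 0.09 SE, adjusted p = 5.09e-08 in OX40minus Tregs), and Eif2s3x was lower in both (-0.64 ± 0.09 SE, adjusted p = 1.3e-05 and -1.19 ± 0.09 SE, adjusted p = 1.6e-08 in the same order). Within the cap list, Eif4e was higher by 2.14 ± 0.10 (SE, adjusted p = 3.6e-11) in OX40plus and 1.67 ± 0.10 (SE, adjusted p = 8.55e-10) in OX40minus Tregs. Eif4e3 was higher by 1.39 ± 0.09 (SE, adjusted p = 2.48e-09) in OX40plus and 1.36 ± 0.09 (SE, adjusted p = 4.59e-09) in OX40minus Tregs, although it was lower in OX40plus Tregs within each tissue. Eif4a1 was higher in tumors in OX40plus Tregs (0.72 ± 0.11 SE, adjusted p = 2.86e-05) and was not called in OX40minus Tregs (95% interval -0.23 to 0.24), whereas Eif4a2 was lower in both gates (-1.53 ± 0.09 SE, adjusted p = 7.05e-10 and -1.35 ± 0.09 SE, adjusted p = 3.97e-09).

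Repressors of the cap-binding protein were also opposed to each other. The tumor over spleen log2 fold change of Eif4ebp2 was -2.92 ± 0.14 (SE, adjusted p = 4.91e-11) in OX40plus and -2.53 ± 0.14 (SE, adjusted p = 3.62e-10) in OX40minus Tregs, against 1.52 ± 0.16 (SE, adjusted p = 4.09e-07) and 1.14 ± 0.16 (SE, adjusted p = 1.29e-05) in the same order for Eif4ebp1. Eif4b was lower in tumors by -1.76 ± 0.08 (SE, adjusted p = 3.36e-11) in OX40plus and -1.99 ± 0.08 (SE, adjusted p = 1.05e-11) in OX40minus Tregs on the log2 scale. Eif4g1 and Eif4g3 were lower in tumors in both gates and Eif4g2 was higher, so that Eif4g2 over Eif4g1 in the same sample was 4.25 ± 0.832 in tumor OX40plus (SD, n = 4) and 1.57 ± 0.0235 in spleen OX40plus Tregs (n = 3). In the OX40minus gate this ratio was 4.90 ± 0.466 in tumor (n = 4) and 1.75 ± 0.0355 in spleen Tregs (n = 3). Of the start codon factors, Eif1a was higher in tumors by 2.36 ± 0.18 (SE, adjusted p = 8.46e-09) in OX40plus and 1.56 ± 0.18 (SE, adjusted p = 1.46e-06) in OX40minus Tregs, and Eif5b was lower by -0.79 ± 0.10 (SE, adjusted p = 2.61e-06) and -1.10 ± 0.10 (SE, adjusted p = 8.2e-08) in the same order.

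**Figure D5:**
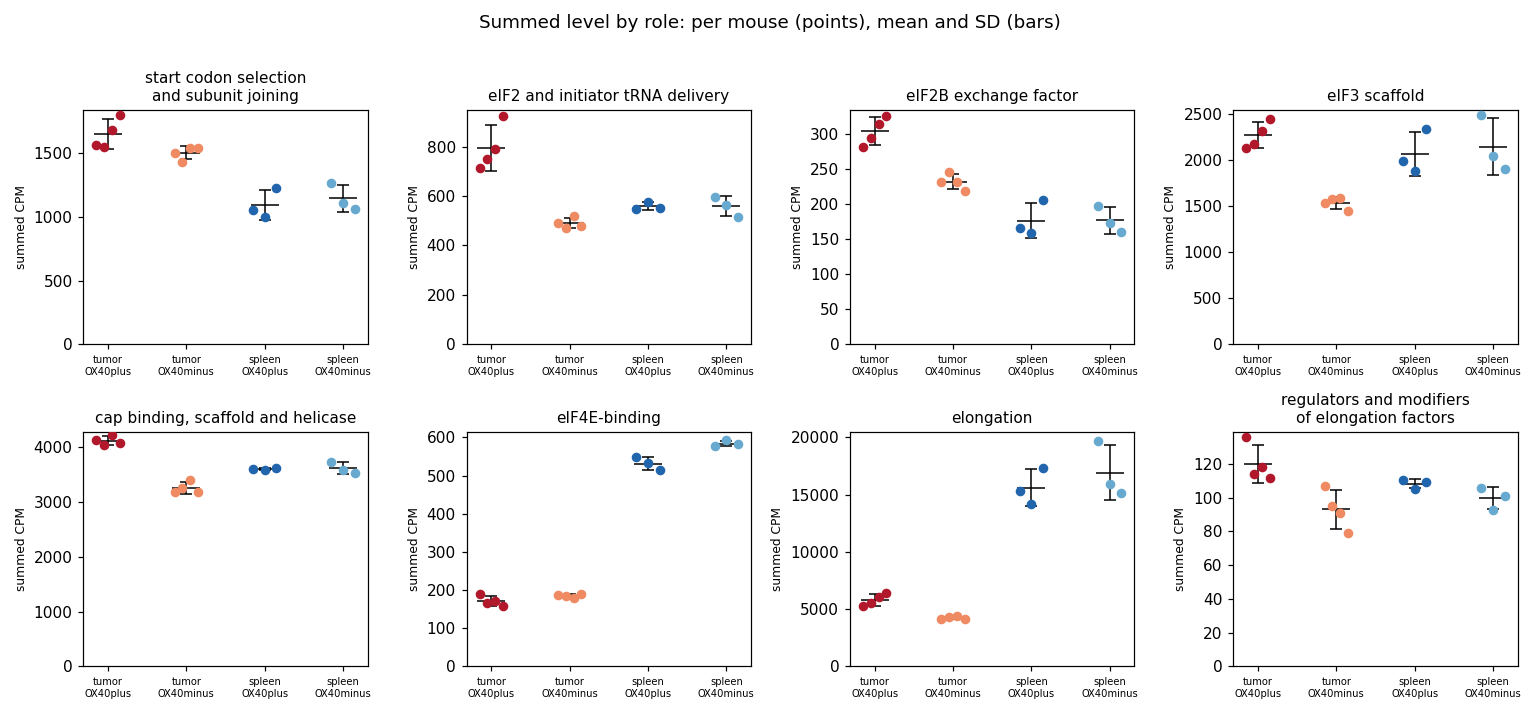
Summed CPM of the members of each role list in each sample, with 1 point per mouse and gate and bars for the mean ± SD of each group. The eIF2, eIF2B, eIF3 and cap list sums were higher in tumor OX40plus than in tumor OX40minus samples without overlap. The elongation and eIF4E-binding sums were highest in spleen samples.

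Of 40 tested genes of translation outside the symbol rule, 13 were higher and 3 lower in tumor OX40plus than in tumor OX40minus Tregs, with a median log2 difference of 0.08. Over all genes, 18.5% were called higher and 19.9% lower there. Abce1, which recycles ribosomes, was at 196 ± 8.66 CPM in tumor OX40plus and 111 ± 9.79 CPM in tumor OX40minus Tregs (SD, n = 4 each), a log2 difference of 0.82 ± 0.08 (SE, adjusted p = 1.69e-06). The transcription factor Myc was at 209 ± 31.5 CPM in tumor OX40plus and 117 ± 6.86 CPM in tumor OX40minus Tregs (0.82 ± 0.10 SE, adjusted p = 9.27e-06), and Etf1, the release factor, at 235 ± 27.9 CPM and 144 ± 11.4 CPM in the same order (0.70 ± 0.09 SE, adjusted p = 1.63e-05). Ppp1r15a, a phosphatase subunit that reverses eIF2 alpha phosphorylation, was at 302 ± 33.6 CPM in tumor OX40plus and 686 ± 79.0 CPM in tumor OX40minus Tregs (-1.18 ± 0.14 SE, adjusted p = 9.65e-06). It was lower in spleen OX40plus than in spleen OX40minus Tregs too (-0.55 ± 0.16 SE, adjusted p = 0.0471). Of the kinases that phosphorylate eIF2 alpha, Eif2ak1 was lower in tumor OX40plus Tregs (-0.31 ± 0.08 SE, adjusted p = 0.00501), and Eif2ak2, Eif2ak3 and Eif2ak4 were not called (log2 fold changes -0.06, -0.08 and -0.01). In spleens 2 of the 40 genes were higher and 1 was lower in OX40plus Tregs, against 4.34% and 3.55% of all genes. Between tissues 11 were higher and 20 lower in tumor than in spleen OX40plus Tregs, and 7 were higher and 20 lower in OX40minus Tregs. The shares of all genes were 30.2% higher and 34.3% lower in OX40plus and 29.7% higher and 29.3% lower in OX40minus Tregs. Hbs1l, a rescuer of stalled ribosomes, and Cyfip1, a binding partner of eIF4E, were the 2 called higher in spleen OX40plus than in spleen OX40minus Tregs (0.50 ± 0.10 SE, adjusted p = 0.00465 and 0.44 ± 0.11 SE, adjusted p = 0.0197). Between tissues both were called higher in tumors. The log2 fold changes of tumor over spleen were 1.28 and 0.66 in OX40plus and 1.20 and 1.22 in OX40minus Tregs, in the same order of genes. Pabpc1, the main poly(A)-binding protein, had a tumor over spleen log2 fold change of -1.91 ± 0.09 (SE, adjusted p = 2.87e-11) in OX40plus and -2.30 ± 0.09 (SE, adjusted p = 4.72e-12) in OX40minus Tregs. Its relative Pabpc4 had -2.79 ± 0.16 (SE, adjusted p = 3.22e-10) and -3.52 ± 0.16 (SE, adjusted p = 2.86e-11), and Paip1, which binds it, -3.14 ± 0.20 (SE, adjusted p = 1.36e-09) and -3.34 ± 0.20 (SE, adjusted p = 9.17e-10), in the same order of gates. In the interaction 5 genes were higher and 1 was lower, against 4.49% and 6.33% of all genes. Abce1 (0.87 ± 0.12 SE, adjusted p = 0.000471), Myc (0.73 ± 0.15 SE, adjusted p = 0.00545) and Etf1 (0.62 ± 0.13 SE, adjusted p = 0.00848) were among the higher, and Cyfip1 was the lower.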

How the data were processed

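The authors' deposited table holds log2 CPM values for 28 libraries (14 samples of 2 libraries each). The tools named are kallisto, limma and bcl2fastq 2.19, on mm10, per the submitters' processing notes. The sources used here do not say how transcripts were summed to genes or whether strand was used. The deposited log2 values look like the output of voom in limma, with 0.5 added to each count, as read from the lowest value that genes without reads share in each library. Inverting it gave estimated counts, from which CPM were computed. kallisto splits reads among similar transcripts, so genes with near-identical copies are uncertain. Library pairs of a mouse and gate had a median chi-square per gene of 0.495 to 0.578 (sampling alone gives 0.455) and were averaged, against 1.417 to 12.957 between mice.

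The test was limma 3.58.1 (R 4.3.3) on mean log2 CPM with a mean-variance trend, 1 term per group and Benjamini-Hochberg adjustment. Genes had to reach 0.382 CPM, taken from the mean log2 CPM of the 2 libraries, in 3 or more samples and 15 counts in total, and the fit was tested on simulated data. The main test used no count model, since the deposited unit is log2, and limma-voom on the estimated counts was run as an alternative. The titles number the mice, so gates of a number within a tissue are from 1 mouse per the labels. Their deviations from group means correlated by -0.154 to 0.122. The labels do not say whether numbers match across tissues. Values in every sample are given for 35 members: the 5 highest and 5 lowest called log2 fold changes of each comparison with at least 10 CPM, every member called in the interaction, paralog families and Eef2k. Of other translation genes, the called ones with the smallest adjusted p and the Eif2ak kinases are named. Levels per kb use the median length of coding transcripts in GENCODE M21, the source of gene coordinates. The members and lists were chosen with earlier results of these data known. The intervals given for log2 differences come from the limma fit, so they include the spread between mice. The floor is 3 counts per sample.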

Additional observations from a re-analysis of the deposited data

Results flagged for a closer look

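Among the members whose levels are given per sample, 70 groups of 4 samples were searched for 1 sample far from the other 3, and 6 were found. Such a search picks about 1 in 20 groups by chance. In tumor OX40plus Tregs, Eef2k was 29.3 CPM in mouse 1, against 19.1 to 20.8 CPM in the others. In the same group, mouse 4 stood apart for Eif3m, at 273 CPM against 191 to 205 CPM, and for Eif4a2, at 167 CPM against 132 to 136 CPM. In tumor OX40minus Tregs, mouse 3 stood apart for 3 genes. Eif1ax was 88.9 CPM there, against 68.1 to 71.1 CPM, Eif2s1 was 184 CPM, against 174 to 175 CPM, and Eif4g2 was 1073 CPM, against 1013 to 1018 CPM.

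For 17 members the OX40plus minus OX40minus difference in log2 CPM was itself larger in tumors than in spleens by limma's interaction term. This difference of differences was 1.08 for Eif2b3, 0.90 for Eif2s2, 0.77 for Eif1ax, 0.75 for Eif3e, 0.75 for Eif3m, 0.73 for Eif2s1 and 0.72 for Eif4a1. It was 0.70 for Eef1d, 0.66 for Eif3i, 0.61 for Eif3b, 0.60 for Eif3d, 0.55 for Eif2s3x, 0.53 for Eif2a, 0.52 for Eif3l, 0.51 for Eif3h, 0.48 for Eif4e and 0.40 for Eif4g2.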

How the results depend on the processing

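No result reversed. Calls held in every setting for 31 of 35 members between the tumor gates, 1 of 1 between the spleen gates, 41 of 45 and 32 of 38 between tissues in OX40plus and OX40minus Tregs, and 7 of 17 in the interaction. Leaving out 1 sample at a time gave 32 to 37, 1 to 2, 41 to 45, 35 to 41 and 7 to 21 called members in the same order. The replicate block by mouse within tissue gave 33 members between the tumor gates, 1 between the spleen gates and 11 in the interaction. A replicate block by mouse number across tissues, which the labels do not tie to 1 animal, gave 45 and 39. Other filters, scalings, an added 1 CPM, limma-voom, single libraries and, chosen after seeing the data, the filter applied to mean CPM gave 34 to 36 between the tumor gates and 15 to 21 in the interaction. Between the tumor gates, Eef1aknmt, Eif2b4, Eif4e2 and Eif4g2 lost their call in at least 1 setting. Eif4a2 became called as lower in 5 settings. With 3 or 4 mice per group, small differences such as that of Eef2 could not be resolved, and levels of Eif4e1b lie near the counting floor.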
